A study of Homo sapiens with 9 samples.

Results

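Cells take up glucose, split it to pyruvate in glycolysis, and either pass the pyruvate to the mitochondria or reduce it to lactate and export it, while a branch at glucose 6-phosphate feeds the pentose phosphate pathway. The 37 genes described here encode the glucose and lactate transporters, the glycolytic isoenzymes, the enzymes that set fructose 2,6-bisphosphate, the kinases and subunits that gate pyruvate entry, 6 enzymes of the pentose phosphate pathway, and the glucose-responsive arrestins TXNIP and ARRDC4. They were chosen by gene symbol with earlier results of these data known, so the count that moved is no independent evidence. All 37 were found among the 58735 genes of the table. They were measured by RNA sequencing of HCT116, an established human colorectal carcinoma line, in 9 libraries, with 3 from WT cells, 3 from A20-KO cells and 3 from A20-RE cells. A20 is a ubiquitin-editing enzyme that dampens NF-κB signalling and is encoded by TNFAIP3. According to the Methods the knockout used guide RNAs in a lentiviral CRISPR vector with puromycin selection, and A20-RE (A20-OE in the labels) are knockout cells in which A20 was expressed again, so that A20-KO and A20-RE share the knockout. A CMV-driven Flag-tagged A20 vector is named there for overexpression, and the sources do not say whether the cells were single clones or whether the 3 libraries of a group came from separate cultures, so the p-values measure only the spread between these libraries.

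The deposited values are FPKM (fragments scaled to gene length and to a depth for each library). TNFAIP3 mRNA was 0.869, 0.8 and 0.736 FPKM in WT, 1.93, 2.16 and 1.04 FPKM in A20-KO, as labelled, and 58.7, 66.5 and 56.5 FPKM in A20-RE. All 3 libraries labelled A20-KO lay above the 3 of WT at a log2 fold change of 0.95 (SE 0.23, limma adjusted p = 0.018), so the mRNA was higher, not lower, under that label. The level of mRNA does not tell whether A20 protein was lost. The paper shows A20 expression in its knockout and rescue cells separately. A20-KO in the text below stands for the libraries so labelled, whose differences cannot be read as those of cells with less A20 mRNA. Whole reads could be recovered from the FPKM. Their totals were 0.950 to 1.066 times the depth that the values imply, so the values were not scaled to these totals. Each library held 23406222 to 24963691 reads. Mitochondrial genes took 7.52 to 10.1% of them in WT, 9.18 to 11.9% in the libraries labelled A20-KO and 12 to 14% in A20-RE. Of 8 colorectal epithelial markers 7 had a mean of at least 1 FPKM over the 9 libraries, though KRT20 was at 0.698 to 0.867 FPKM in WT and 3.52 to 4.23 FPKM in the others, and VIL1 was near 0. Their sum was 1093 to 1472 FPKM in WT, 1701 to 2245 FPKM in the libraries labelled A20-KO and 1690 to 2235 FPKM in A20-RE. Of 9 markers of other cell types only COL1A1 reached 1 FPKM, and their sum was 4.86 to 6.16 FPKM in WT, 12.9 to 15.3 FPKM in the libraries labelled A20-KO and 11.4 to 12.6 FPKM in A20-RE. The part of these shifts in the results was not tested.

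Glycolysis first spends ATP to phosphorylate and split the sugar (upper steps, hexokinase to triose phosphate isomerase) and then recovers it (lower steps, GAPDH to pyruvate kinase). Many of its genes are textbook targets of the hypoxia-inducible factors and of MYC, and carcinoma cells typically keep lactate production high even with oxygen. The oxidative arm of the pentose phosphate pathway makes NADPH, and its other arm exchanges sugar phosphates and supplies ribose for nucleotides.

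A gene was taken to have moved at a Benjamini-Hochberg adjusted p under 0.05, over 21636 genes with a mean of at least 0.1 FPKM, in 1 limma fit of all 9 libraries on log2(FPKM + 0.1), a scale that understates the change of low genes. Past the fold threshold means that the absolute log2 fold change was also above 1. Of the 37 members, 36 could be tested and TXNIP was too low. From A20-KO to A20-RE, 11 members rose and 3 fell (30.6% and 8.33% of those tested), against 4.43% and 4.54% of all genes tested. The 11 that rose were SLC2A1, SLC2A3, HK2, GPI, ALDOA, ALDOC, PGK1, ENO2, LDHA, PDK1 and ARRDC4, and the 3 that fell were PDHA1, PGD and RPIA. The genes that rose included members of the route from glucose uptake (SLC2A1) over HK2, GPI, ALDOA, PGK1 and ENO2 to lactate (LDHA). Other genes of that route did not pass: HK1, PFKL, PFKM, PFKP, TPI1, GAPDH, PGAM1, ENO1, PKM, LDHB, SLC16A1 and SLC16A3. ENO2 was the minor enolase, at 10% of enolase FPKM in A20-RE. The level of ALDOA is uncertain, as described with its values. With genes under a mean of 1 FPKM left out, all 36 members stayed in. Of the 12796 genes then tested, 947 rose and 1124 fell, beside 12 and 3 members. The shares of all genes given in this text include such low genes, which passed less often.

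Past the fold threshold in that comparison were 6 members (16.7%), all higher in A20-RE: SLC2A3, GPI, ALDOA, LDHA, PDK1 and ARRDC4. Among all genes tested 1.56% passed it upward and 0.832% downward. With a pseudocount of 1 in place of 0.1 only 4 of the 6 were past it, since SLC2A3 and PDK1, both low in level, came to log2 fold changes of 0.75 and 0.76. The median log2 fold change of the 36 members was 0.19, beside 0.013 for all genes tested. In bulk RNA a change in the mix of cells and a change in RNA per cell cannot be told apart.

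From WT to the libraries labelled A20-KO, 8 members were higher (HK1, PFKM, ALDOC, PFKFB4, ENO2, PDK2, PGLS and TKT) and 4 lower (SLC16A1, HK2, PGAM1 and RPIA), 22.2% and 11.1% of those tested, against 11.3% and 11.0% of all genes tested. Over the 12796 genes with a mean of at least 1 FPKM, 2169 were higher and 2443 lower, beside 8 and 5 of the 36 members. The excess of members among higher genes was smaller against these genes. Only ALDOC and ENO2, 5.56% of the members, passed the fold threshold, against 4.91% of all genes tested upward and 2.08% downward. The median log2 fold change of the members was 0.11, beside -0.005 for all genes. The count of 12 was not stable: it was 4 without WT replicate 2, 5 without A20-KO replicate 1 or A20-RE replicate 1, 6 without A20-KO replicate 2 or 3, and 7 without A20-RE replicate 2 or 3. The 4 left without WT replicate 2 were ALDOC, ENO2, SLC16A1 and RPIA, which kept their calls in all 20 alternatives.

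Between WT and A20-RE, 17 members were higher and 3 lower (47.2% and 8.33%), against 15.7% and 15.4% of all genes tested. Over the 12796 genes with a mean of at least 1 FPKM, 2613 were higher and 3210 lower, beside 17 and 4 of the 36 members. Past the fold threshold were 6, all higher in A20-RE (GPI, ALDOA, ALDOC, PGK1, ENO2 and ARRDC4), against 7.68% of all genes upward and 4.21% downward. The median log2 fold change was 0.32, beside 0.025 for all genes. All 3 comparisons draw on the same 9 libraries, and the knockout and rescue comparisons share the libraries labelled A20-KO, so they are not independent. In the rescue comparison the count of 14 fell to 8 without A20-RE replicate 1 and to 9 without A20-KO replicate 1, and in each case no member remained called lower.

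Set side by side over the knockout and the rescue comparison, ALDOC and ENO2 were higher in both, RPIA was lower in both, and HK2 was lower in the first and higher in the second. In the knockout comparison alone 8 members passed, in the rescue comparison alone 10 passed, and 14 passed in neither. Passing in one comparison and not in the other is not a test that the changes differ. Groups without overlap were common among all genes. Of the 21636 tested, 8254 did not overlap between A20-KO and WT, 7660 between A20-RE and A20-KO, and 9811 between A20-RE and WT.

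**Figure D1:**
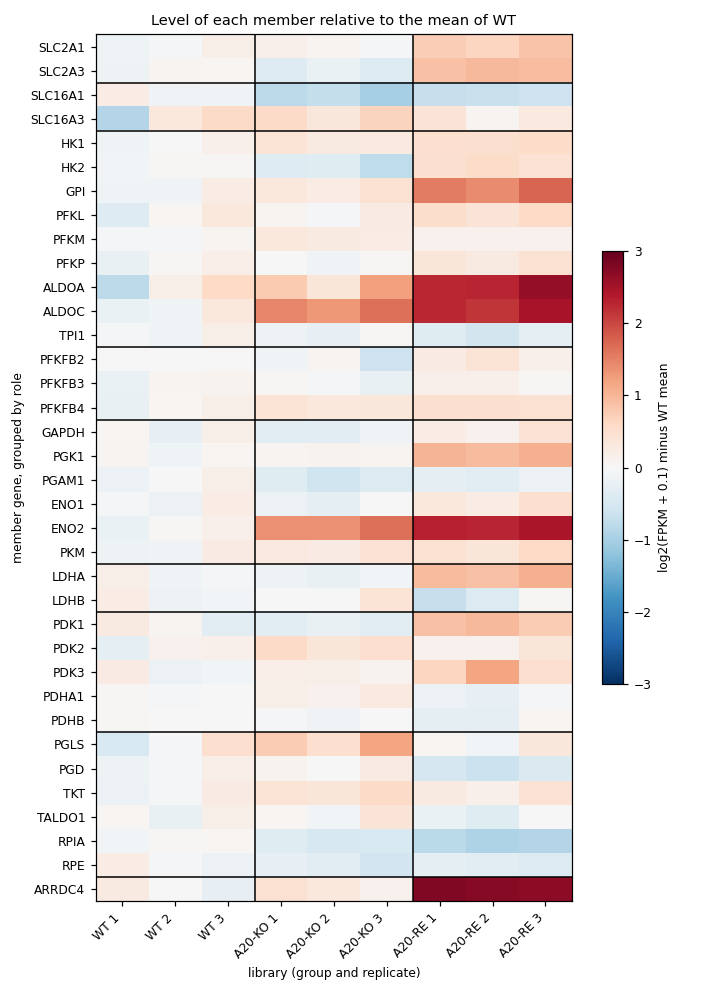
Each row is 1 of the 36 members tested and each column 1 library; colour gives log2(FPKM + 0.1) minus the mean of the 3 WT libraries, red higher and blue lower, and black lines separate roles and groups. GPI, ALDOA, ALDOC, ENO2 and ARRDC4 are deep red in the 3 A20-RE libraries, ALDOC and ENO2 are also red in the 3 libraries labelled A20-KO, and RPIA and PGD are blue in A20-RE.

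Glucose enters through facilitative transporters. SLC2A1 (GLUT1, ENSG00000117394, chromosome 1 from 42925375 to 42959176 on the minus strand, GRCh38) carries basal uptake in most cells. Its level was 120.0, 127 and 148 FPKM in WT, 145, 139 and 127 FPKM in A20-KO, as labelled, and 219, 204 and 239 FPKM in A20-RE. The WT and A20-KO libraries overlapped and all 3 A20-RE libraries lay above both. Limma gave a log2 fold change of 0.066 (SE 0.11, limma adjusted p = 0.73) for A20-KO against WT and 0.68 (SE 0.11, limma adjusted p = 0.01) for A20-RE against A20-KO, and without A20-RE replicate 1 the latter gave an adjusted p of 0.053 (limma).

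SLC2A3 (GLUT3, ENSG00000059804, chromosome 12 from 7919230 to 7936275 on the minus strand), a transporter of high glucose affinity, was far lower per length. It measured 0.903, 1.07 and 1.06 FPKM in WT, 0.748, 0.865 and 0.738 FPKM in A20-KO, as labelled, and 1.94, 2.06 and 2.01 FPKM in A20-RE. A20-RE stood above every other library, with a log2 fold change of 1.25 (SE 0.14, limma adjusted p = 0.0023) against A20-KO, while the step from WT gave -0.33 (SE 0.14, limma adjusted p = 0.13). SLC2A3 made up 0.766% ± 0.0661, 0.569% ± 0.052 and 0.903% ± 0.085 (SD, n = 3) of the summed FPKM of this pair in WT, A20-KO and A20-RE, so nearly all of it was SLC2A1 in each group.

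Lactate leaves and enters through monocarboxylate transporters that co-transport a proton. SLC16A1 (MCT1, ENSG00000155380, chromosome 1 from 112911847 to 112957013 on the minus strand) works in both directions. Its level was 43.2, 34.5 and 34.3 FPKM in WT, 21.6, 22.7 and 18.5 FPKM in A20-KO, as labelled, and 22.9, 23.2 and 24.2 FPKM in A20-RE. All 3 WT libraries lay above the other 6. The log2 fold change from WT to A20-KO was -0.83 (SE 0.12, limma adjusted p = 0.0017), a level 1.78-fold lower, and from A20-KO to A20-RE it was 0.17 (SE 0.12, limma adjusted p = 0.41). SLC16A3 (MCT4), the exporter typical of glycolytic cells, passed in no comparison and is named here for a library chosen after its values were seen: WT replicate 1 had 23.4 FPKM, against 45.4 to 67.8 FPKM in the other 8. SLC16A1 was 64.9% of the pair's FPKM in that library and 21.4 to 39.4% in the others.

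Hexokinase traps glucose in the cell as glucose 6-phosphate. HK1, the form found in nearly all tissues (ENSG00000156515, chromosome 10 from 69269984 to 69401884 on the plus strand), measured 16.4, 17.8 and 20.1 FPKM in WT, 23.8, 21.7 and 22.1 FPKM in A20-KO, as labelled, and 25.7, 25.1 and 26.5 FPKM in A20-RE. The groups followed each other without overlap, but the step from WT to A20-KO was small at 0.32 (SE 0.094, limma adjusted p = 0.039), lost in 10 of 20 alternatives with an adjusted p of up to 0.14 (limma, without A20-KO replicate 1). A20-RE against WT gave 0.51 (SE 0.094, limma adjusted p = 0.0032). HK2, the inducible form common in tumours (ENSG00000159399, chromosome 2 from 74833981 to 74893359 on the plus strand), measured 20.9, 22.6 and 22.5 FPKM in WT, 16.8, 17.2 and 12.8 FPKM in A20-KO, as labelled, and 30.6, 32 and 29.8 FPKM in A20-RE. It was lowest in the libraries labelled A20-KO and highest in A20-RE, with no overlap between any pair of groups. In log2 terms the difference was -0.50 (SE 0.12, limma adjusted p = 0.015) for A20-KO against WT, 0.99 (SE 0.12, limma adjusted p = 0.0028) for A20-RE against A20-KO and 0.48 (SE 0.12, limma adjusted p = 0.013) for A20-RE against WT. Without WT replicate 2 the first of these had an adjusted p of 0.053 (limma). HK2 was 54.9% ± 1.81 of the summed HK1 and HK2 FPKM in WT, 40.7% ± 3.75 in A20-KO and 54.4% ± 1.55 in A20-RE (SD, n = 3). The WT and A20-RE shares overlapped and the A20-KO shares lay below both.

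GPI (glucose-6-phosphate isomerase, ENSG00000105220, chromosome 19 from 34359480 to 34402413 on the plus strand) turns glucose 6-phosphate to fructose 6-phosphate. It measured 63.1, 64.3 and 79.7 FPKM in WT, 86.1, 79.6 and 94.9 FPKM in A20-KO, as labelled, and 200.4, 185 and 232 FPKM in A20-RE. All 3 A20-RE libraries lay above the other 6. The log2 fold change was 1.24 (SE 0.13, limma adjusted p = 0.0018) against A20-KO, 2.36-fold, and 1.58 (SE 0.13, limma adjusted p = 5.5e-05) against WT, and the step from WT to A20-KO was 0.34 (SE 0.13, limma adjusted p = 0.1).

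Phosphofructokinase is the main control step of glycolysis, with liver (PFKL), muscle (PFKM) and platelet (PFKP) forms. None of the 3 passed in the rescue comparison. PFKL (ENSG00000141959, chromosome 21 from 44300051 to 44327376 on the plus strand) measured 16.2, 21.9 and 26.5 FPKM in WT, 22.3, 20.7 and 25 FPKM in A20-KO, as labelled, and 30.3, 27.8 and 32 FPKM in A20-RE. The WT libraries spanned the range of the A20-KO libraries, and A20-RE lay above both. Its log2 fold change from WT to A20-RE was 0.51 (SE 0.17, limma adjusted p = 0.046), lost in 12 of 20 alternatives and at an adjusted p of 0.13 without A20-RE replicate 3 (limma). PFKM was higher in A20-KO than in WT at 0.27 (SE 0.077, limma adjusted p = 0.036) and PFKP higher in A20-RE than in WT at 0.36 (SE 0.12, limma adjusted p = 0.04), each lost in 10 of 20 alternatives (highest limma adjusted p 0.13 and 0.12). By FPKM, PFKP was the main form in every library (59.3 to 64.1% of the 3).

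Aldolase splits fructose 1,6-bisphosphate into the triose phosphates. ALDOC, the form named for brain (ENSG00000109107, chromosome 17 from 28573115 to 28577264 on the minus strand), rose in both comparisons. It measured 16.5, 17.4 and 23.5 FPKM in WT, 52.1, 46.3 and 59.5 FPKM in A20-KO, as labelled, and 90.8, 84.1 and 105 FPKM in A20-RE. The groups did not overlap, in the order WT, A20-KO, A20-RE. Limma gave a log2 fold change of 1.47 (SE 0.16, limma adjusted p = 4.9e-04) from WT to A20-KO, 0.83 (SE 0.16, limma adjusted p = 0.016) from A20-KO to A20-RE, and 2.29 (SE 0.16, limma adjusted p = 2.1e-05) from WT to A20-RE, 4.9-fold. The second step lost its call without A20-KO replicate 1 (adjusted p = 0.061), A20-RE replicate 1 (0.064) or A20-RE replicate 3 (0.056, limma).

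ALDOA, the form named for muscle (ENSG00000149925, chromosome 16 from 30064164 to 30070457 on the plus strand), measured 0.771, 1.6 and 2.18 FPKM in WT, 2.5, 1.82 and 3.4 FPKM in A20-KO, as labelled, and 7.15, 7.16 and 9.28 FPKM in A20-RE. A20-RE lay above the other 6 libraries, while WT and A20-KO overlapped. In log2 terms the difference was 1.61 (SE 0.34, limma adjusted p = 0.024) against A20-KO and 2.40 (SE 0.34, limma adjusted p = 8.9e-04) against WT, and 0.79 (SE 0.34, limma adjusted p = 0.13) for A20-KO against WT. The rescue step lost its call when A20-KO replicate 1 (adjusted p = 0.078) or 2 (0.064), or A20-RE replicate 1 (0.08), 2 (0.076) or 3 (0.075, limma) was left out. ALDOA values need care: 53.5% of its exonic bases are also exonic in other genes, 42.3% on its own strand in AC093512.2, which itself was at 0.323 to 0.950 FPKM. The sources do not say how reads in such bases were assigned or whether strand was used, and the level of ALDOA is therefore uncertain. ALDOA is an abundant mRNA in most cells, yet here it lay below ALDOC in every library. It also lay far below GPI, of an earlier step, at 63.1 to 232 FPKM and TPI1 at 205 to 339 FPKM.

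TPI1, which interconverts the triose phosphates, passed in no comparison and ranged from 205 to 339 FPKM. Over the 9 upper glycolysis enzymes, 3 were higher and 1 lower in A20-KO against WT, 4 higher and 0 lower in A20-RE against A20-KO, and 7 higher and 0 lower in A20-RE against WT. These were 33.3% higher and 11.1% lower (11.3% and 11.0% of all genes tested), 44.4% higher (4.43%) and 77.8% higher (15.7%). Their median log2 fold changes were 0.27, 0.41 and 0.51.

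Fructose 2,6-bisphosphate, the strongest activator of phosphofructokinase, is made and broken down by the PFKFB enzymes. PFKFB3 (ENSG00000170525, chromosome 10 from 6144934 to 6254644 on the plus strand), the form with the highest kinase activity relative to its phosphatase, measured 10.6, 12.9 and 13.2 FPKM in WT, 12.5, 11.7 and 10.5 FPKM in A20-KO, as labelled, and 13.6, 13.5 and 12.6 FPKM in A20-RE. WT overlapped both other groups, and the lowest A20-RE library was just above the highest A20-KO library, with log2 fold changes of -0.078 (SE 0.11, limma adjusted p = 0.67) and 0.19 (SE 0.11, limma adjusted p = 0.32). The 95% interval of its rescue step ran from -0.06 to 0.45. PFKFB2 passed in no comparison, and PFKFB4 was higher than in WT in A20-KO, at 0.35 (SE 0.11, limma adjusted p = 0.043, lost in 13 of 20 alternatives), and in A20-RE, at 0.48 (SE 0.11, limma adjusted p = 0.0087, lost in none of the 20). Within the 3, PFKFB4 made up 31.4% ± 0.875 of the FPKM in WT, 38.7% ± 2.31 in A20-KO and 36.8% ± 0.945 in A20-RE (SD, n = 3), with every WT library below the other 6.

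PGK1 (ENSG00000102144, chromosome X from 77910739 to 78129296 on the plus strand) makes the first ATP of the lower steps. It measured 124, 106 and 121 FPKM in WT, 123, 125 and 124 FPKM in A20-KO, as labelled, and 235, 225 and 244 FPKM in A20-RE. WT and A20-KO overlapped, and the A20-RE libraries stood apart above them, at a log2 fold change of 0.92 (SE 0.10, limma adjusted p = 0.0018) against A20-KO and 1.01 (SE 0.10, limma adjusted p = 1.0e-04) against WT. ENO2, the enolase named for neurons (ENSG00000111674, chromosome 12 from 6913745 to 6923698 on the plus strand), measured 13, 15.3 and 16.5 FPKM in WT, 38.6, 38.6 and 46.9 FPKM in A20-KO, as labelled, and 75.2, 72.2 and 81.6 FPKM in A20-RE. Like ALDOC it rose in 2 steps with no overlap, by 1.47 (SE 0.12, limma adjusted p = 1.8e-04) and then by 0.89 (SE 0.12, limma adjusted p = 0.0046), a total of 2.35 (SE 0.12, limma adjusted p = 5.9e-06) or 5.11-fold. ENO1, the enolase of most tissues, was the far more abundant form at 448 to 767 FPKM and passed in no comparison. ENO2 made up 2.7% ± 0.377 of enolase FPKM in WT, 7.81% ± 0.266 in A20-KO and 10% ± 0.378 in A20-RE (SD, n = 3), without overlap.

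Of the other lower enzymes, GAPDH, the dehydrogenase often used as a reference gene, passed in no comparison, with a log2 fold change of 0.50 (SE 0.17, limma adjusted p = 0.1) in the rescue comparison. Its level was 827 to 1101 FPKM in WT, 779 to 912 FPKM in A20-KO and 1059 to 1314 FPKM in A20-RE. PGAM1 was lower in A20-KO than in WT, at -0.46 (SE 0.12, limma adjusted p = 0.028), and PKM, pyruvate kinase, was higher in A20-RE than in WT, at 0.48 (SE 0.14, limma adjusted p = 0.027), calls lost in 8 and 6 of 20 alternatives. Over the 6 lower enzymes, 1 was higher and 1 lower in the knockout comparison, 2 higher and 0 lower in the rescue comparison, and 3 higher and 0 lower in A20-RE against WT. The shares were 16.7% higher and 16.7% lower, near the 11.3% and 11.0% of all genes tested, then 33.3% higher (4.43% of all genes) and 50% higher (15.7%). GAPDH has 62 named pseudogenes in the table, which held 0.84% as many reads as the gene itself, and TPI1, SLC2A3, PGAM1 and LDHA had 0.906%, 0.709%, 0.214% and 0.207%. Reads that could be split between such copies make the values of these 5 genes less certain.

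Lactate dehydrogenase converts pyruvate and lactate, with LDHA favouring lactate and LDHB favouring pyruvate. LDHA (ENSG00000134333, chromosome 11 from 18394388 to 18408425 on the plus strand) measured 239.5, 195 and 208 FPKM in WT, 192, 185 and 201 FPKM in A20-KO, as labelled, and 415, 392 and 446 FPKM in A20-RE. WT and A20-KO overlapped, and all 3 A20-RE libraries lay above them. The log2 fold change was 1.12 (SE 0.11, limma adjusted p = 0.0016) against A20-KO, 2.17-fold, and 0.97 (SE 0.11, limma adjusted p = 3.3e-04) against WT, and that of A20-KO against WT was -0.15 (SE 0.11, limma adjusted p = 0.39). LDHB (ENSG00000111716, chromosome 12 from 21635342 to 21757857 on the minus strand) measured 24.3, 18.5 and 19.5 FPKM in WT, 20.4, 20.5 and 27.3 FPKM in A20-KO, as labelled, and 12.8, 15.4 and 21 FPKM in A20-RE. Its groups overlapped, with a log2 fold change of -0.49 (SE 0.20, limma adjusted p = 0.16) in the rescue comparison, and 33.4% of its exonic bases are shared with AC010197.2 on the same strand. LDHB was 8.81% ± 0.338 of LDHA and LDHB FPKM in WT, 10.5% ± 1.25 in A20-KO and 3.76% ± 0.754 in A20-RE (SD, n = 3). The A20-RE shares lay below all others, while LDHB itself did not pass. The sources do not say how reads in its shared bases were assigned, so the level and share of LDHB are uncertain.

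The pyruvate dehydrogenase complex turns pyruvate into acetyl-CoA, and the PDK kinases switch it off. PDK1 (ENSG00000152256, chromosome 2 from 172555373 to 172608669 on the plus strand) measured 1.56, 1.36 and 0.984 FPKM in WT, 0.987, 1.09 and 0.983 FPKM in A20-KO, as labelled, and 2.44, 2.63 and 2.24 FPKM in A20-RE. A20-RE lay above the other 6 libraries, with a log2 fold change of 1.18 (SE 0.18, limma adjusted p = 0.0067) against A20-KO and 0.87 (SE 0.18, limma adjusted p = 0.0051) against WT, while WT and A20-KO overlapped. PDK3 (ENSG00000067992, chromosome X from 24465221 to 24541862 on the plus strand) measured 2.7, 1.99 and 2.12 FPKM in WT, 2.59, 2.55 and 2.42 FPKM in A20-KO, as labelled, and 3.55, 5.23 and 3.23 FPKM in A20-RE. It passed between WT and A20-RE, at 0.77 (SE 0.19, limma adjusted p = 0.013), though not without WT replicate 2 (adjusted p = 0.0504, limma), and its rescue step was 0.62 (SE 0.19, limma adjusted p = 0.077). PDK2 was higher in A20-KO than in WT, at 0.48 (SE 0.14, limma adjusted p = 0.04, lost in 12 of 20 alternatives), and shares 38.6% of its exonic bases with a gene on the other strand. PDHA1, the catalytic subunit that the kinases phosphorylate, fell from A20-KO to A20-RE at a log2 fold change of -0.35 (SE 0.086, limma adjusted p = 0.039, lost in 9 of 20 alternatives), and shares 21.3% of its exonic bases with MAP3K15. PDHB, its partner subunit, passed in no comparison. PDK1 was 16.6% ± 3.86 of the FPKM of the 3 kinases in WT, 10.8% ± 1.1 in A20-KO and 21.5% ± 1.3 in A20-RE (SD, n = 3).

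In the pentose phosphate pathway none of the 6 enzymes rose in the rescue comparison and 2 fell. These were 0% and 33.3%, beside 4.43% and 4.54% of all genes tested. PGD (6-phosphogluconate dehydrogenase, ENSG00000142657, chromosome 1 from 10398592 to 10420144 on the plus strand), an NADPH-forming step, measured 63, 68 and 80.3 FPKM in WT, 75.4, 70.6 and 82.8 FPKM in A20-KO, as labelled, and 49.1, 44.7 and 51.5 FPKM in A20-RE. WT and A20-KO overlapped and A20-RE lay below both, at a log2 fold change of -0.65 (SE 0.12, limma adjusted p = 0.013) against A20-KO and -0.53 (SE 0.12, limma adjusted p = 0.0075) against WT. The call against A20-KO was lost without A20-KO replicate 1 (adjusted p = 0.052), A20-RE replicate 1 (0.058) or A20-RE replicate 2 (0.06, limma).

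RPIA (ribose-5-phosphate isomerase, ENSG00000153574, chromosome 2 from 88691644 to 88750935 on the plus strand), which makes the ribose of nucleotides, measured 28.5, 30.7 and 31.3 FPKM in WT, 23.4, 21.5 and 21.9 FPKM in A20-KO, as labelled, and 17.2, 15.8 and 16.3 FPKM in A20-RE. It fell in each step with no overlap, at log2 fold changes of -0.44 (SE 0.082, limma adjusted p = 0.006) and -0.43 (SE 0.082, limma adjusted p = 0.016), and of -0.87 (SE 0.082, limma adjusted p = 1.0e-04) between WT and A20-RE. The second step was lost without A20-KO replicate 1 (adjusted p = 0.076), A20-RE replicate 1 (0.059), 2 (0.075) or 3 (0.054, limma). PGLS (6-phosphogluconolactonase, ENSG00000130313, chromosome 19 from 17511629 to 17521288 on the plus strand), the second step of the oxidative arm, measured 6.2, 8.31 and 12.1 FPKM in WT, 14.6, 12.1 and 19.7 FPKM in A20-KO, as labelled, and 8.83, 8 and 10.7 FPKM in A20-RE. WT replicate 3 and A20-KO replicate 2 were both at 12.1 FPKM, so the groups touched, and the log2 fold change of 0.82 (SE 0.25, limma adjusted p = 0.046) was lost in 10 of 20 alternatives, up to an adjusted p of 0.15 without A20-KO replicate 3 (limma). TKT, transketolase, was higher in A20-KO than in WT at 0.45 (SE 0.13, limma adjusted p = 0.036, lost in 9 of 20 alternatives), and TALDO1 and RPE passed in no comparison.

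TXNIP and ARRDC4 are related arrestin-domain proteins that reduce glucose uptake and whose genes are induced by glucose through the MondoA and ChREBP factors. ARRDC4 (ENSG00000140450, chromosome 15 from 97960698 to 97973838 on the plus strand) had the largest change of the 36 members in the rescue comparison. It measured 3.14, 2.56 and 2.16 FPKM in WT, 3.57, 3.23 and 2.84 FPKM in A20-KO, as labelled, and 18.3, 17.9 and 17.2 FPKM in A20-RE. WT and A20-KO overlapped, and every A20-RE library lay well above them. Limma gave a log2 fold change of 2.44 (SE 0.14, limma adjusted p = 1.2e-04) against A20-KO, 5.42-fold, and 2.73 (SE 0.14, limma adjusted p = 6.0e-06) against WT. TXNIP (ENSG00000265972, chromosome 1 from 145992435 to 145996600 on the minus strand) had 0 reads in all 6 WT and A20-KO libraries. There 3 reads, taken as an approximate upper limit for a count of 0, would be 0.0331 to 0.0355 FPKM. In A20-RE it had 0, 2 and 7 reads, the last 0.0840 FPKM. No fold was computed, and such limits cover counting error only. ARRDC4 and TXNIP share no exonic base with other genes.

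**Figure D2:**
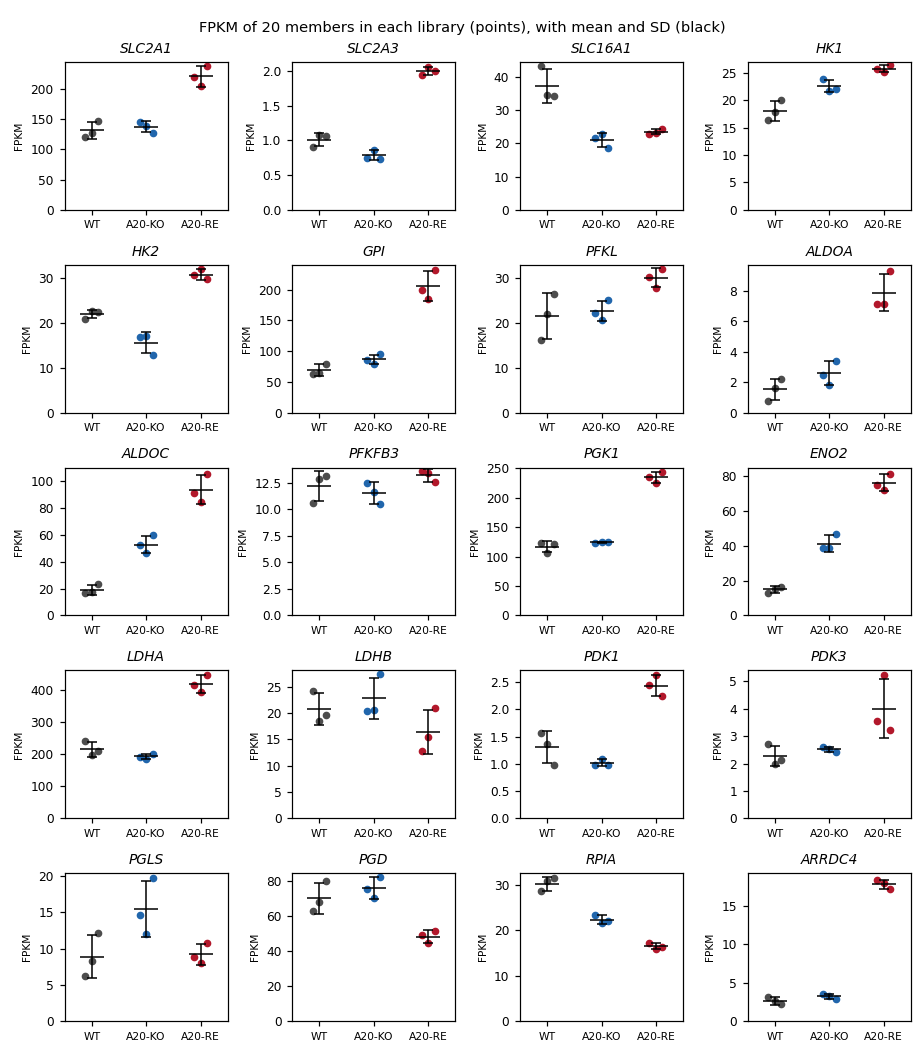
Each panel is 1 of 20 members; points are the FPKM of single libraries in WT (grey), A20-KO (blue) and A20-RE (red), and the black bar and whiskers are the mean and SD of 3 libraries, on an axis from 0. The A20-RE points lie above all others for SLC2A1, SLC2A3, HK1, HK2, GPI, PFKL, ALDOA, ALDOC, PGK1, ENO2, LDHA, PDK1, PDK3 and ARRDC4. They lie below all others for PGD and RPIA, while the 3 groups of LDHB overlap. HK1, PFKL and PDK3 did not pass in A20-RE against A20-KO.

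**Figure D3:**
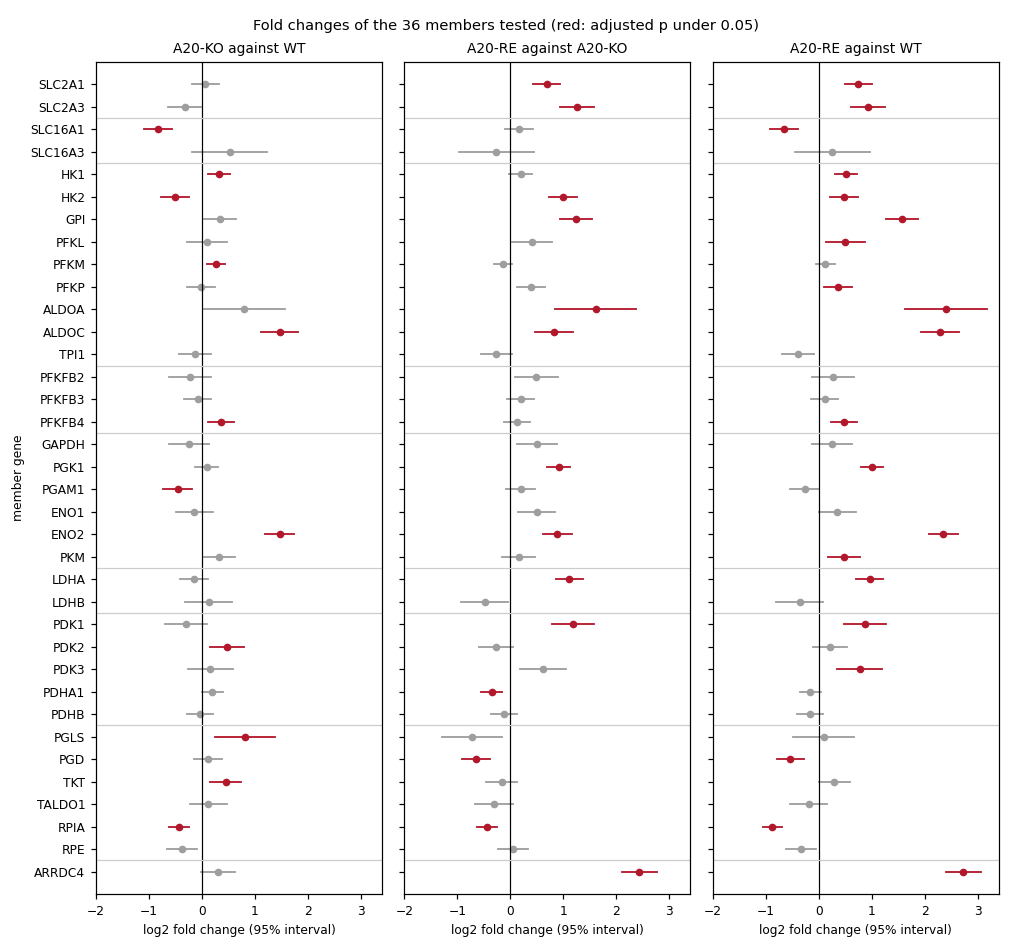
Points are log2 fold changes of the 36 members tested in each of the 3 comparisons, with 95% intervals from limma, red where the adjusted p was under 0.05. In A20-RE against A20-KO, 24 of the 36 points lie right of 0, and ARRDC4 is farthest right at 2.44.

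Summed over all genes that are not mitochondrial, the 37 members held 1.58% ± 0.0984 of the FPKM in WT, 1.44% ± 0.00525 in A20-KO and 2% ± 0.0505 in A20-RE (SD, n = 3). The A20-RE libraries lay above the other 6, and those labelled A20-KO below the other 6. The 17 glycolytic enzymes held 1.35% ± 0.0951, 1.2% ± 0.00895 and 1.74% ± 0.05 in the same order, and the 6 pentose phosphate enzymes 0.111% ± 0.00535, 0.117% ± 0.00359 and 0.0926% ± 0.00221, lowest in A20-RE. Such sums weight abundant genes such as GAPDH, ENO1 and PKM most. With the values scaled to total reads, 12 members were higher and 3 lower in A20-RE against A20-KO, in place of 11 and 3, while over all genes the split was 732 higher and 1415 lower in place of 958 and 982.

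**Figure D4:**
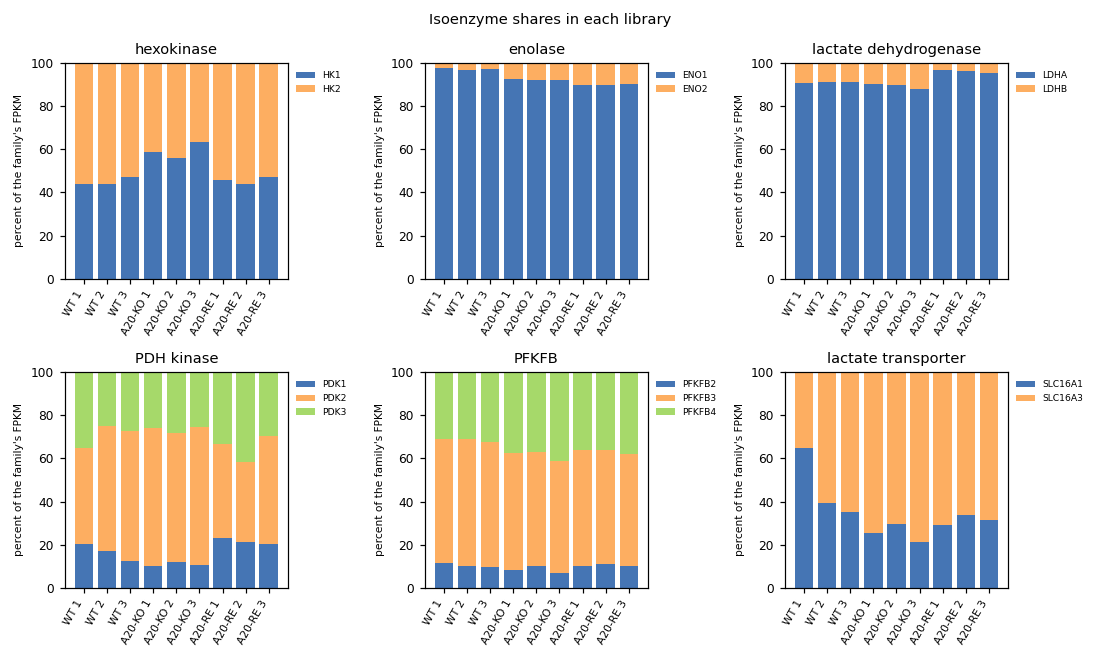
Stacked bars give each isoenzyme's percent of its family's FPKM in the 9 libraries, from 0 to 100, for 6 families. HK2 is smallest in the libraries labelled A20-KO (40.7%) and close to WT in A20-RE (54.4% against 54.9%). The ENO2 share grows from 2.70% over 7.81% to 10%. The LDHB share, uncertain because of shared exonic bases, shrinks to 3.76% in A20-RE.

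Of 96 related genes, 72 could be tested. In A20-RE against A20-KO 12 were higher and 7 lower (16.7% and 9.72%), in A20-KO against WT 25 and 8 (34.7% and 11.1%), and in A20-RE against WT 26 and 9 (36.1% and 12.5%), each to be read against the shares of all genes given above. Of the 12 rescue rises, 8 were in the hypoxia-induced list. The 10 other sugar and lactate transporters tested had 2 higher and 1 lower in the knockout comparison, and 0 and 1 in the rescue comparison. These were 20% and 10%, beside 11.3% and 11.0% of all genes tested, and then 0% and 10%, beside 4.43% and 4.54%. SLC2A6, a glucose transporter of intracellular membranes, had a log2 fold change of 0.87 (SE 0.18, limma adjusted p = 0.0089) and then -1.38 (SE 0.18, limma adjusted p = 0.004), and SLC2A12 one of 1.33 (SE 0.22, limma adjusted p = 0.002) between WT and A20-RE.

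Among 11 other glycolytic enzymes, 2 were higher and 2 lower in the knockout comparison and 1 and 2 in the rescue comparison. The shares were 18.2% and 18.2%, then 9.09% and 18.2%, beside 11.3% and 11.0%, then 4.43% and 4.54%, of all genes tested. LDHD, the D-lactate dehydrogenase, was higher in A20-KO than in WT by 1.27 (SE 0.20, limma adjusted p = 0.0025). HKDC1, a hexokinase-like enzyme with under 1 FPKM, rose from A20-KO to A20-RE by 1.23 (SE 0.30, limma adjusted p = 0.037), and PGAM5, a mitochondrial phosphatase named for its relation to PGAM1, was lower in A20-RE than in WT at -1.14 (SE 0.14, limma adjusted p = 4.9e-04). Of 9 other genes of the pyruvate gate 0 were higher and 3 lower in the knockout comparison, and 0 and 0 moved in the rescue comparison. The 3 were 33.3% of the 9, beside 11.0% of all genes tested that were lower there. DLAT, the acetyltransferase core of the complex, measured 24.8, 22.8 and 22.3 FPKM in WT, 8.65, 8 and 7.17 FPKM in A20-KO, as labelled, and 6.77, 6.38 and 6.35 FPKM in A20-RE. It was lower in every A20-KO and A20-RE library than in every WT library, at -1.54 (SE 0.10, limma adjusted p = 5.3e-05) and -1.83 (SE 0.10, limma adjusted p = 6.1e-06).

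Of 6 other pentose phosphate genes, 3 were higher and 2 lower in the knockout comparison, and 1 and 2 in the rescue comparison. By share this was 50% and 33.3%, then 16.7% and 33.3%, beside 11.3% and 11.0%, then 4.43% and 4.54%, of all genes. H6PD, which runs the oxidative steps inside the endoplasmic reticulum, measured 2.22, 2.7 and 2.53 FPKM in WT, 5.25, 5.18 and 3.65 FPKM in A20-KO, as labelled, and 8.1, 8.23 and 6.18 FPKM in A20-RE. It rose by 0.88 (SE 0.17, limma adjusted p = 0.0073) and 0.67 (SE 0.17, limma adjusted p = 0.046), while PGD fell in the second step. Of 6 glucose-sensing factors and other arrestins 3 were higher and 0 lower in the knockout comparison, and 1 and 0 in the rescue comparison. The shares higher were 50% and 16.7%, beside 11.3% and 4.43% of all genes tested. MLXIPL, the gene of ChREBP, was higher in A20-KO than in WT by 1.28 (SE 0.17, limma adjusted p = 0.0014), with a rescue step of -0.50 (SE 0.17, limma adjusted p = 0.11). ARRDC3, a relative of ARRDC4, measured 5, 4.38 and 3.71 FPKM in WT, 6.5, 6.91 and 5.12 FPKM in A20-KO, as labelled, and 11.1, 10.9 and 10.7 FPKM in A20-RE, and rose by 0.49 (SE 0.14, limma adjusted p = 0.036) and 0.82 (SE 0.14, limma adjusted p = 0.011).

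The list of 16 hypoxia-induced genes outside glycolysis, genes that rise through the hypoxia-inducible factors in most cells, had 11 higher and 0 lower in the knockout comparison (68.8%), 8 and 0 in the rescue comparison (50%), and 11 and 0 in A20-RE against WT. Its median log2 fold changes were 0.45, 0.73 and 1.17, beside -0.005, 0.013 and 0.025 for all genes tested. In the same order 11.3%, 4.43% and 15.7% of all genes tested were higher. NDRG1, a gene known for strong induction by hypoxia, measured 23.3, 25.4 and 27.6 FPKM in WT, 66, 65.2 and 59.6 FPKM in A20-KO, as labelled, and 291, 272 and 296 FPKM in A20-RE. P4HA1, a subunit of collagen prolyl hydroxylase, measured 24.5, 21.2 and 21.7 FPKM in WT, 57.8, 61.9 and 55.6 FPKM in A20-KO, as labelled, and 117, 118 and 125 FPKM in A20-RE. Both rose in each step without overlap, NDRG1 by 1.32 (SE 0.10, limma adjusted p = 1.2e-04) and 2.17 (SE 0.10, limma adjusted p = 2.1e-05), P4HA1 by 1.38 (SE 0.091, limma adjusted p = 6.8e-05) and 1.04 (SE 0.091, limma adjusted p = 7.2e-04). ANKRD37 rose in the first step by 1.93 (SE 0.15, limma adjusted p = 1.5e-04), with -0.55 (SE 0.15, limma adjusted p = 0.055) in the second. Earlier results of these data, including NDRG1, were known when the list was written, so it is no independent evidence of its direction.

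Members that moved together in the rescue comparison were also described by their promoters. RefSeq promoter entries (GRCh38.p14, read over the 250 bases before each gene start) existed for 34 of the 37 members, in 63 windows. They were searched on both strands for ACGTG, the core of the hypoxia response element, and for CACGTG, the E box of MYC and related factors, which contains ACGTG on both strands. ACGTG stood in 18.5% of 35114 windows of all genes, in 36.5% of the 63 member windows, in 12 of 15 windows (80%) of the 10 members higher in A20-RE that have an entry, and in 11 of 48 windows (22.9%) of the other members. By gene, 9 of those 10 and 11 of the other 24 held it in at least 1 window, beside 21.7% of 27303 genes. CACGTG stood in 6.35% of all windows, 14.3% of member windows, 33.3% of those of the 10 higher members and 8.33% of those of the others. These are matches of letters, counted without a test, and members with several windows count more than once by window.

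The windows of the members past the fold threshold that have exactly 1 window with the letters are shown because they differ in number and spacing of matches. Capitals mark ACGTG as read on either strand (CACGT on the other strand, CACGTG where both meet).
GPI (chr19:34364742-34364991, plus strand): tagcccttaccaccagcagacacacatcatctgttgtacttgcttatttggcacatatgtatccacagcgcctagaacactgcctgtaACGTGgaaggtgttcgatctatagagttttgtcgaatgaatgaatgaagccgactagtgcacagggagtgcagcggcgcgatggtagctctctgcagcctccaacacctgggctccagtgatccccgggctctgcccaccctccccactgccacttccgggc
LDHA (chr11:18394313-18394562, plus strand): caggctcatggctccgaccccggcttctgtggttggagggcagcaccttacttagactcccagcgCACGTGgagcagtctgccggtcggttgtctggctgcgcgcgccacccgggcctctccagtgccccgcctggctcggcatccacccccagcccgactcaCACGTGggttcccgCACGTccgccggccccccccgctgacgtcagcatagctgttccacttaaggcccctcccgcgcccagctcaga
PDK1 (chr2:172555840-172556089, plus strand): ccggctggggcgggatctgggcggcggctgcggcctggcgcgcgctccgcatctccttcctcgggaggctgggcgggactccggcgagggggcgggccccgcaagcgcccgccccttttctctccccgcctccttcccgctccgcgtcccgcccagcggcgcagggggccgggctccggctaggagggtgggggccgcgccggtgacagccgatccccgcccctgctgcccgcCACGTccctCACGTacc
ARRDC4 (chr15:97960453-97960702, plus strand): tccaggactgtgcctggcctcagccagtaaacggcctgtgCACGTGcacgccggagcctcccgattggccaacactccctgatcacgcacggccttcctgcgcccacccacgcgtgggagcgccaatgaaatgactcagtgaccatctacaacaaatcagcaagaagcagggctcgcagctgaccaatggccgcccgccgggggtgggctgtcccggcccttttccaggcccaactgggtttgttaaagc

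LDHA holds CACGTG at 2 places and a further CACGT, PDK1 holds CACGT at 2 places close to the RefSeq start, ARRDC4 has 1 CACGTG, and GPI has 1 ACGTG. The starts are those of RefSeq, and the GPI and PDK1 windows lie inside the GENCODE 29 span of their genes. The LDHA window reaches past the GENCODE start at 18394388, with its first CACGTG before that start and its other matches after it. ALDOA has 3 windows with a match and SLC2A3 no entry, and neither is shown.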

How the data were processed

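RNA of HCT116 WT, A20-KO and A20-RE cells was sequenced in 9 libraries by the authors, who aligned reads with HISAT2 2.0.5 and counted them with featureCounts 1.5.0-p3 per the labels, and deposited FPKM per gene. Strand use and the genome build are not given in the sources used here. Coordinates equalled GENCODE 29 (GRCh38) for 99.9% of genes. FPKM times gene length, divided by what 1 read was worth in each library, gave whole reads for 100% of values (tolerance 0.02 reads). The values are deposited as FPKM, so in place of the count test of the Methods limma 3.58.1 (R 4.3.3, variance trend) was run on log2(FPKM + 0.1) over genes with a mean of at least 0.1 FPKM, with 6 residual degrees of freedom. It was tested on simulated reads first. Members and gene lists were chosen with earlier results of these data known. Values per library are given for members past adjusted p 0.05 with an absolute log2 fold change of at least 0.5 in any comparison and for 8 fixed members, and for related genes past the fold threshold, at most 3 a list. An exact permutation test of 3 libraries against 3 cannot go below p = 0.1 and was not used.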

Additional observations from a re-analysis of the deposited data

How the results depend on the processing

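The 2 planned count tests were not run. In their place limma-voom on the recovered reads was added after seeing the data, as was a correction for GC content. Median-of-ratios scaling, 1 of the 20 alternatives, had a factor of 1.0111 in every library, so it moved all libraries alike and is no test of scaling between them. The deposited values were thus already level between libraries by this measure. This scaling left 21583 genes tested in place of 21636. The 12 members that moved in A20-KO against WT were 7 with no filter on low values, 6 with no variance trend and 4 with only the 2 groups compared, and 4 to 15 when each library was left out. The 2 past the fold threshold there became 2 to 4, with 4 without WT replicate 3. The 14 of A20-RE against A20-KO became 8 to 17 when each library was left out, and the 20 of A20-RE against WT 16 to 22. Same-numbered libraries of different groups deviated together with correlations of -0.027 to 0.1213, so the numbers were not taken as pairs, and the replicate block gave 15, 19 and 24 moved members in place of 12, 14 and 20. For the members given with values per library, 37 results passed. Of these, 27 kept their call in all 20 alternatives, 10 lost it in at least 1, and none reversed. Of the other calls, PFKM, PFKFB4, PGAM1, PDK2 and TKT (A20-KO against WT), PDHA1 (A20-RE against A20-KO), and PFKP and PKM (A20-RE against WT) were each lost in 6 to 13. PFKFB4 in A20-RE against WT was kept in all. Reversals touched only results that had not passed. After the GC correction, A20-KO against WT gave -0.0365 for SLC2A1, -0.31 for PFKL (limma adjusted p = 0.00352) and 0.0341 for LDHA, and A20-RE against WT gave -0.0288 for PGLS. With each library left out, A20-KO against WT ran from -0.0918 (without WT replicate 1) to 0.26 for PFKL and from -0.0114 (without A20-KO replicate 3) to 0.24 for LDHB, and A20-RE against WT from -0.13 (without WT replicate 1) to 0.34 for PGLS, with -0.0221 without A20-RE replicate 3. The cause was not tested. At this depth 35 of 37 members had at least 100 reads in every library. TXNIP had 0 to 7 reads, at the limit of detection, and why it was so low was not tested.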

Other observations

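Genes of gluconeogenesis and glycogen use, which run against or beside glycolysis, were a further list of 19, of which 14 could be tested. In A20-KO against WT 4 were higher and 0 lower, in A20-RE against A20-KO 1 and 2, and in A20-RE against WT 5 and 1. The shares higher and lower were 28.6% and 0%, 7.14% and 14.3%, and 35.7% and 7.14%, beside 11.3% and 11.0%, 4.43% and 4.54%, and 15.7% and 15.4% of all genes tested. GBE1, the branching enzyme of glycogen synthesis, measured 7.72, 8.41 and 7.19 FPKM in WT, 6.77, 6.69 and 5.6 FPKM in A20-KO, as labelled, and 12.4, 13.8 and 12.9 FPKM in A20-RE. It rose from A20-KO to A20-RE by a log2 fold change of 1.02 (SE 0.11, limma adjusted p = 0.0018), with every A20-RE library above the other 6. PC, pyruvate carboxylase, measured 2.83, 3.5 and 4.17 FPKM in WT, 5.91, 5.94 and 6.58 FPKM in A20-KO, as labelled, and 8.63, 7.78 and 8.84 FPKM in A20-RE, and was higher in A20-KO than in WT by 0.81 (SE 0.14, limma adjusted p = 0.0042) and in A20-RE than in WT by 1.26 (SE 0.14, limma adjusted p = 2.4e-04). PYGM, a glycogen phosphorylase, stayed near or under 1 FPKM and was higher in A20-KO than in WT by 1.13 (SE 0.27, limma adjusted p = 0.017).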
